A study of Rattus norvegicus with 90 samples.

Results

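The kidney response to a high dose of thioacetamide was read from 10 of the 90 libraries of the series, those of whole rat kidney collected 24 h after exposure. They were chosen by their labels alone: 5 came from rats given 100 mg/kg of thioacetamide and 5 from rats given saline, the vehicle, at 3 ml/kg. All animals were male Sprague-Dawley rats bought at 10 weeks of age, carried a jugular catheter, were injected intraperitoneally, and had no food for the last 8 h. Each kidney was frozen whole and powdered, and its poly-A RNA was sequenced, so every value is an average over all the cell types of the organ. Among transcripts, the rows with an Ensembl rat identifier, 40071 were listed and 18967 had enough counts to be tested.

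Thioacetamide is an organosulfur compound that is harmless until it is oxidized. Cytochrome P450 and flavin-containing monooxygenase enzymes turn it into an S-oxide and then into reactive products that bind proteins and lipids, and it is known above all as a liver toxicant. The kidney holds some of the same enzymes and receives what the liver releases into the blood. Its mass is mostly tubule, an epithelium that takes back salts, sugars, amino acids, and water from the filtrate through transporters that few other organs use. Kidney samples were collected in the study to ask how far the response to this compound is particular to an organ.

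The libraries held 20531004 to 27720000 estimated counts with vehicle and 21101964 to 31562820 with the high dose (exact two-sided permutation test, p = 0.349). The tissue label was checked through the other groups, because no table used here ties the transcripts to gene names and markers could not be looked up. Over 40071 transcripts, each of the 10 libraries had a Spearman correlation of 0.92 to 0.939 with the mean of the vehicle kidneys of the 8 h groups, against 0.83 to 0.853 with vehicle liver and 0.818 to 0.844 with vehicle heart at 24 h. The high-dose library MS-106 stood apart from the other high-dose libraries. Its mean correlation with its own group was 0.915, against 0.934 to 0.949 for every other library of the 10, and the median within-group SD of log2 CPM (counts scaled to the same total in each library) was 0.333 with it and 0.232 without it, against 0.285 in the vehicle group. It is also the only high-dose library numbered above 90, as MS-103 is in the vehicle group, and library numbers above 90 were a term in the model. Results that lead below are given with and without it.

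By 24 h, the high dose had changed the level of 832 transcripts, which was 4.39% of those tested, in nearly equal numbers up and down. Of these, 419 rose (2.21%) and 413 fell (2.18%). A transcript was called when edgeR's quasi-likelihood test gave it an adjusted p of 0.01 or less and its fold change was 1.82 or more, limits set with the study's numbers. The median fold among the called transcripts was 2.52 for those that rose and 2.67 for those that fell. A change of at least 8-fold was fitted for 43 of the risen and 29 of the fallen transcripts, and one of at least 16-fold for 24 and 9. The tail of very large changes was thus longer on the rising side. Without MS-106, 427 rose and 447 fell, and without the vehicle library MS-103, 441 rose and 429 fell. Without the high-dose library MS-56, 304 rose and 272 fell.

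The even balance depended on the scaling. TMM factors, which correct a library's total for its composition, were 0.934 to 0.983 in the vehicle group and 0.994 to 1.089 in the high-dose group, with no overlap. With library totals alone, the median log2 fold change of all tested transcripts went from 0.01 to 0.12, and 584 transcripts rose and 322 fell. With limma on log2(TPM + 1) the median was 0.14, and 534 rose and 239 fell. The numbers called in each direction are therefore relative to the typical transcript of the sample.

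**Figure D1:**
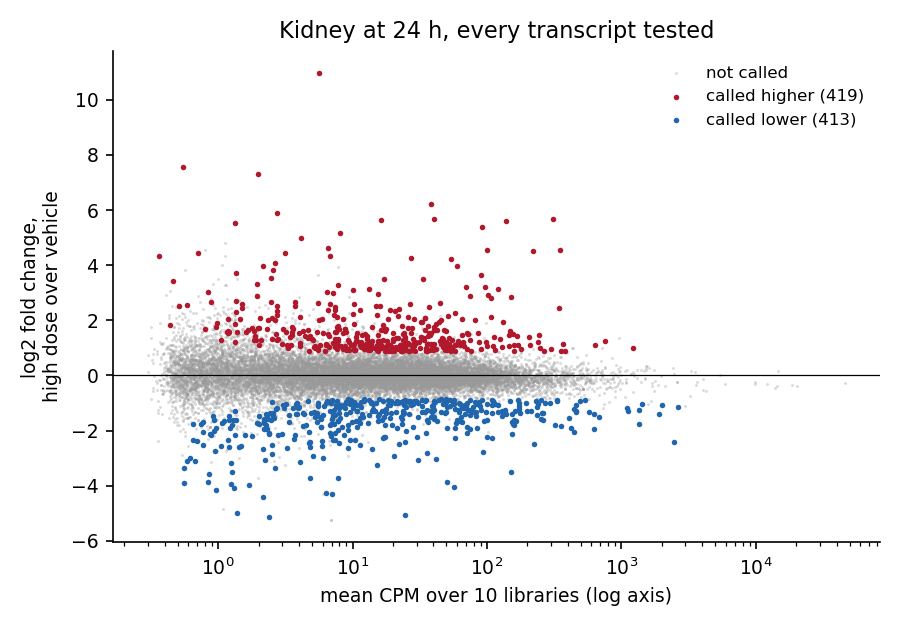
Log2 fold change of every tested transcript, high dose over vehicle, against its mean CPM over the 10 libraries on a log axis, with the 419 transcripts called higher in red and the 413 called lower in blue. Calls are found across the range of abundance, and the largest rises exceed the largest falls.

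The groups did not overlap for most of the called transcripts, which were picked for their difference in these same libraries. The 5 high-dose libraries all lay above the 5 vehicle libraries in CPM for 377 of the 419 that rose, and all below for 399 of the 413 that fell. Across all tested transcripts, the groups did not overlap for 2430, or 12.8%. The 42 risen and 14 fallen transcripts with overlapping groups passed the test all the same. Its model has a term for library numbers above 90, which CPM values do not take into account. Whether that term accounts for the overlap was not tested.

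Transcripts called without a library show how that library itself behaved. Leaving out MS-33, 297 transcripts were called higher among the remaining libraries, and in MS-33 these stood a median log2 of 1.61 above the vehicle mean. The same value was 1.46 for MS-36, 1.17 for MS-54, and 1.37 for MS-56. It was lowest in MS-106, at 1.0 over 427 transcripts, of which 92% were above the vehicle mean. For transcripts called lower, the medians were -1.38 in MS-33, -1.48 in MS-36, -1.3 in MS-54, -1.67 in MS-56, and -1.11 in MS-106. All 5 treated kidneys thus showed the change in both directions, and MS-106 showed the least of it. The vehicle libraries that a left-out treated library was set against had also served to pick the transcripts, which favors values further from 0. The left-out vehicle libraries stayed between -0.06 and 0.16 on the risen transcripts and between -0.19 and 0.32 on the fallen ones, with the highest value in MS-31. Because MS-103 and MS-106 are the only libraries of their number range here, leaving out either lets the batch term take up the other, so that the fold changes of both those fits rest on the other 8 libraries.

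**Figure D2:**
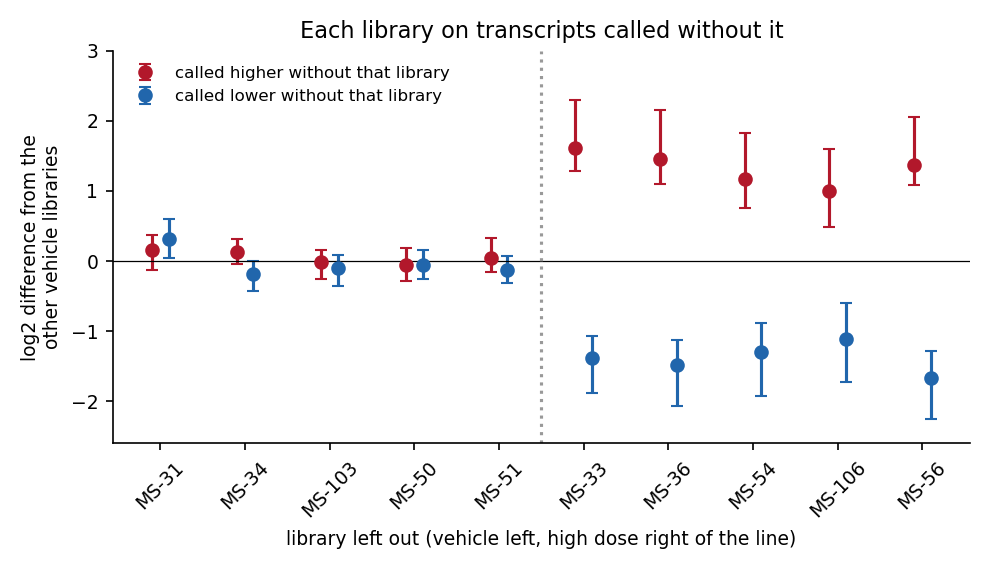
For each library left out of the test, the median (point) and the quartiles (bars) of its log2 difference from the other vehicle libraries, over the transcripts called higher (red) or lower (blue) without it. The 5 vehicle libraries lie near 0, and the 5 high-dose libraries lie from 1.0 to 1.61 on one side and from -1.11 to -1.67 on the other.

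No file used here pairs the transcripts with gene symbols, so what their genes do is left out. The 2 transcripts with the largest rises and the 2 with the largest falls are given by their Ensembl identifiers and lengths. They were chosen among the calls that averaged 2 CPM or more over the 10 libraries and whose groups did not overlap. The first, ENSRNOT00000027891 (1663 bases), went from near absence to moderate abundance in every treated kidney. Its CPM was 0.661, 1.3, 1.04, 1.36, and 0.606 in the vehicle libraries MS-31, MS-34, MS-103, MS-50, and MS-51, and 82, 78.9, 70.3, 89.6, and 59.7 in the high-dose libraries MS-33, MS-36, MS-54, MS-106, and MS-56. The lowest treated kidney was far above the highest vehicle kidney, and MS-106 was the highest of all. The log2 fold change was 6.22 ± 0.228 (SE, n = 5 per group; edgeR, adjusted p = 3.12e-07). Per length, its level went from 0.613 ± 0.209 TPM (an abundance scaled for length and library; SD, n = 5) to 53.3 ± 7.27 TPM.

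The other large rise, ENSRNOT00000083275 (3519 bases), rounded to 0 counts in all 5 vehicle libraries. In the high-dose libraries, in the same order, its CPM was 7.49, 10.8, 21.1, 2.42, and 14.4, with the lowest value in MS-106. Against a floor of 3 counts per vehicle library, the high-dose mean of 11.2 ± 7.04 CPM (SD, n = 5) was at least 74-fold higher (adjusted p = 0.000266, edgeR). In TPM the treated mean was 3.64 ± 2.34 (SD, n = 5). Other vehicle kidneys did hold it, since the 5 of the 8 h group averaged 0.995 ± 0.818 TPM (SD) with 1 library at 0.

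Of the 2 transcripts with the largest falls, ENSRNOT00000082044 (1428 bases) was nearly lost from treated kidneys. Its CPM was 5.95, 3.86, 4.67, 4.53, and 4.3 in the vehicle libraries, and it was 0.667 in MS-54 and 0 in the other 4 high-dose libraries. The group means were 4.66 ± 0.783 CPM and 0.133 ± 0.298 CPM (SD, n = 5 each), and the log2 fold change was -5.12 ± 1.04 (SE; edgeR, adjusted p = 0.00808). The call did not hold in the libraries numbered up to 90 alone, where the adjusted p was 0.016, nor with any library but MS-54 left out, although the direction stayed. It rounded to 0 counts in all 5 vehicle livers and all 5 vehicle hearts at 24 h.

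In ENSRNOT00000026473 (2638 bases) the vehicle kidneys themselves differed widely. They had a CPM of 143.0, 27.2, 2.86, 51.8, and 16.8, with MS-31 at the top and MS-103 at the bottom. The high-dose libraries had 1.78, 0.679, 1.0, 1.8, and 0.698, all below the lowest vehicle library and close to each other. The log2 fold change was -5.06 ± 0.98 (SE; edgeR, adjusted p = 0.00659), and the call was lost when MS-34, MS-50, MS-33, MS-36, MS-54, or MS-56 was left out, with adjusted p-values of 0.0126 to 0.0267.

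**Figure D3:**
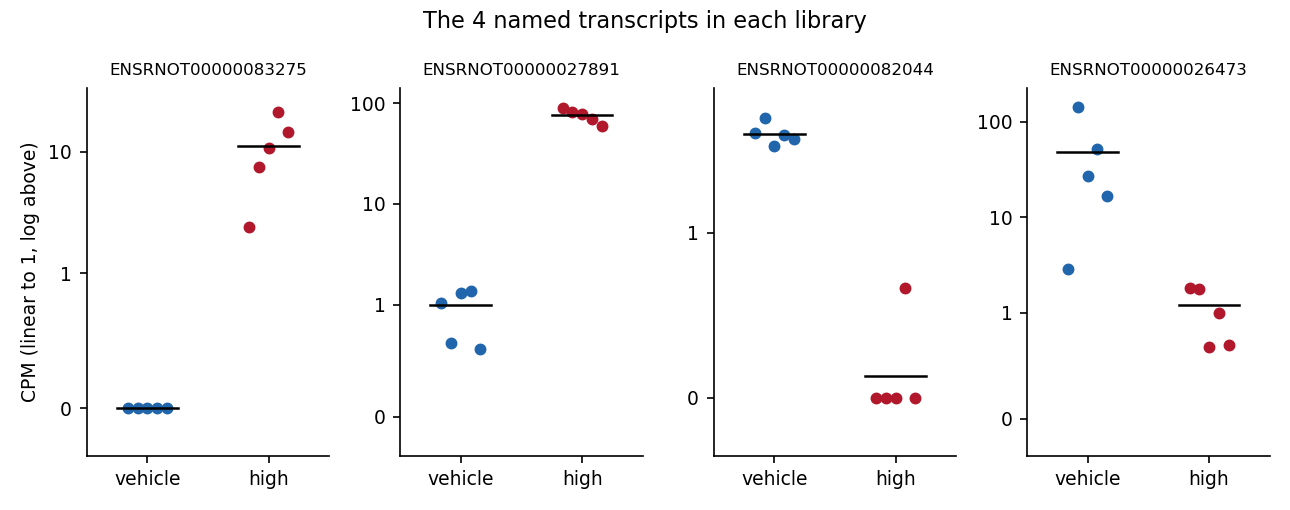
CPM of the 4 transcripts with the largest changes in each vehicle (blue) and high-dose (red) library, on an axis that is linear up to 1 and logarithmic above, with a line at the group mean. The groups do not overlap in any of the 4, and the vehicle values of ENSRNOT00000026473 spread from 2.86 to 143.0.

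The called transcripts were also described by the organs in which they are found without thioacetamide. Transcripts were grouped by their levels in the vehicle rats of the 8 h groups, which no 24 h comparison uses, and the grouping was chosen after the calls were known. In these rats, 923 of the tested transcripts were at least 10 times as high in kidney as in liver and heart (on TPM + 0.1), and they can be called kidney-enriched. Of these, 139 fell (15.1%) and 13 rose (1.41%). Kidney-enriched transcripts were 4.87% of all tested transcripts and 33.7% of those that fell. Their median log2 fold change was -0.34, against 0.01 over all tested transcripts, and 77.7% were below 0. In bulk tissue, fewer cells of a type and less RNA per cell cannot be told apart.

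The fall of kidney-enriched transcripts was seen in every treated rat. Their median log2 difference from the vehicle mean was -0.39 in MS-33, -0.37 in MS-36, -0.4 in MS-54, -0.27 in MS-106, and -0.41 in MS-56. In the vehicle libraries, each against the other 4, it lay between -0.07 and 0.15. Together these transcripts held 8.99 ± 1.03% of the TPM in vehicle kidneys and 7.39 ± 0.722% in treated kidneys (SD, n = 5 each), with ranges of 7.87 to 10.5% and 6.36 to 8.14% that overlap. Without MS-106, 132 fell and 9 rose. The direction held under each scaling run, with medians of -0.35 with RLE factors, -0.23 with library totals, and -0.13 with limma on log2(TPM + 1), where the median of all tested transcripts was 0.0, 0.12, and 0.14.

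Transcripts present everywhere had a share of rises near that of all tested transcripts (2.21%) and a share of falls below it (2.18%). Of 10737 with at least 1 TPM in kidney, liver, and heart and no 10-fold preference for or against the kidney, 255 rose (2.37%) and 83 fell (0.773%), with a median log2 fold change of 0.02. They were 56.6% of all tested transcripts, 60.9% of all that rose, and 20.1% of all that fell. Their split moved with the scaling, to 371 up and 50 down with library totals, 360 and 37 with limma on log2(TPM + 1), and 433 and 39 with limma on log2(TPM + 0.1). The 629 transcripts at least 10 times as high in liver or heart as in kidney had 28 that rose (4.45%) and 10 that fell (1.59%). Together they held 0.46 ± 0.0492% of the TPM of vehicle kidneys and 0.658 ± 0.0902% of that of treated kidneys (SD, n = 5 each), with ranges of 0.397 to 0.531% and 0.578 to 0.768%. Low-dose kidneys at 24 h held 0.911 ± 0.769% (SD, n = 5), from 0.515 to 2.29%. The count filter also admits transcripts counted in the treated libraries alone, which can favor rises in a class scarce in the kidney. The remaining 6678 had 123 that rose and 181 that fell. The balance of these reversed to 165 and 143 with library totals.

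**Figure D4:**
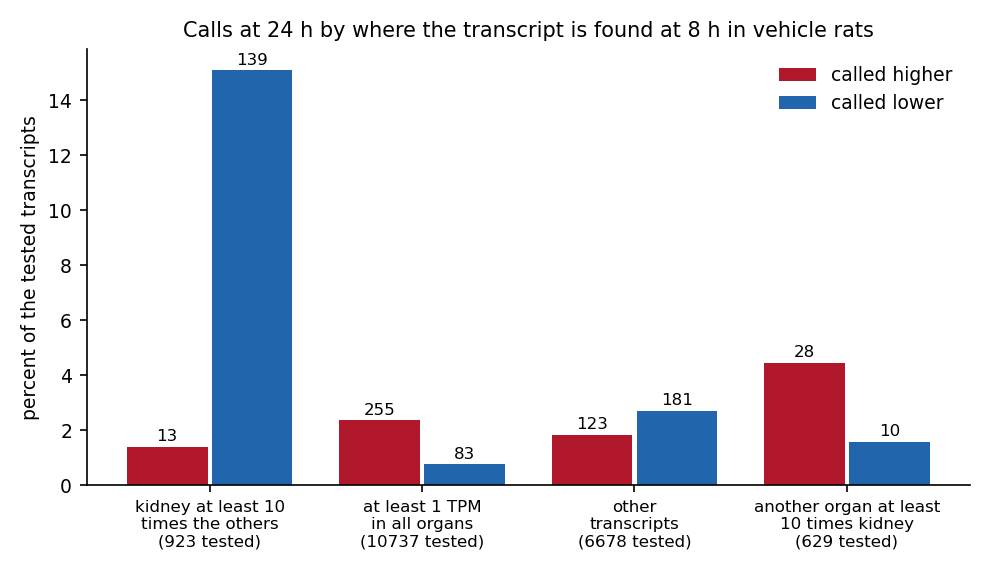
Percent of the tested transcripts called higher (red) or lower (blue) in the kidney at 24 h, in 4 classes set by their level in the kidney, liver, and heart of vehicle rats at 8 h, with the number called above each bar. Of the kidney-enriched transcripts 15.1% fell and 1.41% rose, and of those present in all organs 2.37% rose and 0.773% fell.

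The called transcripts were a small part of the kidney's RNA. Those that fell held more of it than those that rose in every vehicle library, and those that rose held more in every treated library. The 413 fallen transcripts held 3.75, 2.84, 2.83, 2.61, and 2.67% of the TPM in the vehicle libraries, and from 1.12 to 1.43% in the treated ones. The 419 risen transcripts held from 0.422 to 0.552% with vehicle, and 1.89, 1.91, 1.61, 1.29, and 1.62% with the high dose. These transcripts were picked for this difference, so the shares describe its size and are not a test. The largest gain was that of a transcript of 993 bases, from a mean of 14.7 to 785 TPM, and the largest loss that of one of 3045 bases, from 1340 to 301 TPM.

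Of the 200 transcripts highest by mean TPM, 9 were called (4.5%, beside 4.39% of all tested transcripts), all of them lower, and the most abundant of these held rank 73. The 50 highest held 43.0 ± 2.88% of the TPM with vehicle and 39.1 ± 2.35% with the high dose (SD, n = 5 each), and the ranges of 39.2 to 46.1% and 35.6 to 41.0% overlap. Between 100 and 1000 TPM, 50 of 971 transcripts fell (5.15%) and 24 rose (2.47%). Under 1 TPM, 2.69% of 2969 transcripts were called in either direction, and at 1000 TPM or more 3.06% of 98 were. By length, the share called ran from 3.08% of the 747 transcripts under 500 bases to 4.95% of the 5944 between 1000 and 2000 bases.

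Few transcripts were switched on or off outright. Among the 419 that rose, 2 were at 0 counts in all 5 vehicle libraries and 5 at no more than 3 counts in each. No fallen transcript was at 3 counts or fewer in all 5 high-dose libraries. From under 1 TPM in every vehicle library to at least 1 TPM in every treated library went 29 of the risen transcripts, and 22 of the fallen ones made the reverse move.

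The response had begun at 8 h and was further from 0 at 24 h for part of the transcripts. At 8 h after the high dose, against its own vehicle group, 216 of 18597 transcripts were called in the kidney (1.16%), 165 up and 51 down. Leaving out the library MS-57 reduced these to 117, and with no batch term 278 were called. The libraries numbered above 90 at 8 h were MS-98, MS-101, and MS-102 with the high dose and MS-100 with vehicle. Dose and library number were thus partly confounded at 8 h and in the comparison of the times below. Of the 216, 127 were called at 24 h (58.8%), all in the same direction, and they were 15.3% of the calls at 24 h. The 419 risen transcripts had a median log2 fold change of 0.72 at 8 h, over the 410 tested there, of which 24.6% were called at that time. The 413 fallen ones had a median of -0.45 at 8 h, over 410, of which 6.34% were called. The median over all transcripts tested at 8 h was -0.01.

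Whether an effect differed between the times was tested as the interaction of dose and time over 20 libraries, each time with its own vehicle rats. The study injected the 8 h rats in the morning and gave them no food afterwards. Its 24 h rats were injected in the late afternoon and fed until the last 8 h. A difference between the times thus cannot be told apart from one of injection hour or feeding. The effect differed for 176 of 19959 transcripts (0.882%), with an adjusted p of 0.01 or less in edgeR. Of these, 140 were among the 832 called at 24 h, and their choice by a large value at 24 h favors larger effects at that time. Fallen transcripts were the greater part of them, with 100 of 413, all further below 0 at 24 h, and a median log2 fold change of -0.26 at 8 h and -1.8 at 24 h. Of the 419 risen transcripts, 40 differed, 37 of them further up at 24 h and 3 closer to 0. The other 36 of the 176 were not called at 24 h, and 9 of them were called at 8 h. Of the 34 of these tested at both times, 24 had opposite signs at 8 and 24 h. By size alone, 18 of the 34 were further from 0 at 24 h and 16 at 8 h. The count went to 56.8% of this number without MS-38 and to 60.2% without MS-57, both high-dose libraries at 8 h.

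Among the 4 transcripts given above, the 2 that rose differed between the times. ENSRNOT00000027891 had a log2 fold change of 1.87 ± 0.467 (SE) at 8 h, and the difference between the times was 4.4 ± 0.492 (SE; edgeR, adjusted p = 6.12e-05). For ENSRNOT00000083275 the 8 h value was 0.17 ± 1.16 (SE) and the adjusted p of the difference was 0.00562. Its 8 h means were 0.995 ± 0.818 TPM with vehicle and 0.462 ± 0.409 TPM with the high dose (SD, n = 5 each), the opposite order to the fitted value. The vehicle groups also differed, since all 5 vehicle libraries at 24 h rounded to 0 counts, so the difference does not lie in the treated kidneys alone. ENSRNOT00000082044 was already called at 8 h, with a log2 fold change of -3.24 ± 0.452 (SE; adjusted p = 0.00321), and its level there fell from 2.83 ± 1.31 to 0.234 ± 0.134 TPM (SD, n = 5 each). For ENSRNOT00000026473 the 8 h value was -1.47 ± 0.697 (SE; adjusted p = 0.288). The adjusted p of the difference between the times was 0.482 for ENSRNOT00000082044 and 0.121 for ENSRNOT00000026473, which does not show that their effects were alike.

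**Figure D5:**
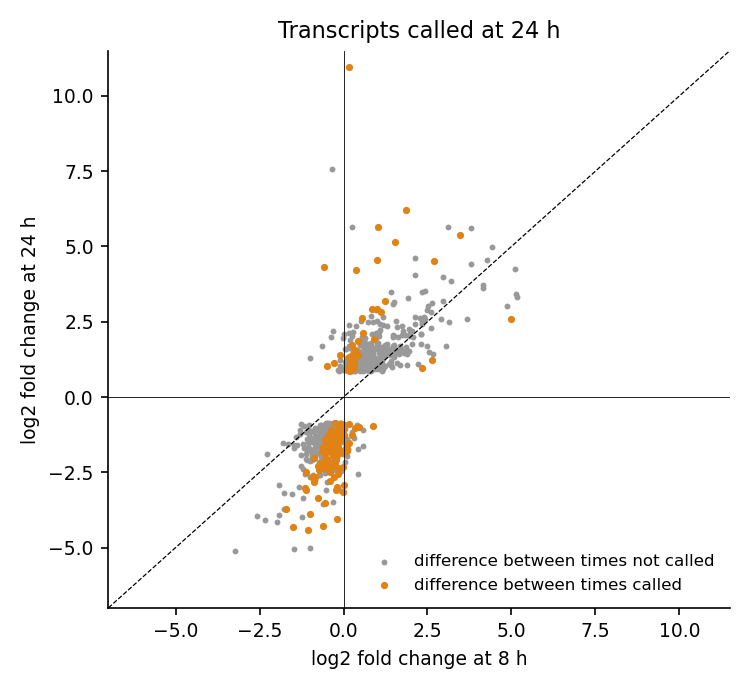
Log2 fold change at 24 h against that at 8 h for the transcripts called at 24 h and tested at 8 h, each time against its own vehicle group, with equal values on the dashed line. Transcripts whose effect differed between the times are orange, and the 100 fallen ones among them all lie below the line, further from 0 at 24 h.

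The low dose of 25 mg/kg at 24 h was compared with the same 5 vehicle libraries, so its values can only stand beside those of the high dose. At that dose, 4 of 18559 transcripts were called (0.0216%), and 2437 had an unadjusted p under 0.05. The number was 163 with DESeq2, 11 with no batch term, and 0 to 8 with a library left out. The risen transcripts of the high dose had a median log2 fold change of 0.49 with the low dose over 399 tested, and the fallen ones of -0.66 over 413. The median over all transcripts tested at the low dose was 0.02. Both sets were picked for their difference from these same vehicle libraries, which favors the same direction here. Of the risen ones 3 were called with the low dose, and of the fallen ones 0. The kidney-enriched transcripts had a median of -0.19 with the low dose and held 7.89 ± 0.474% of the TPM (SD, n = 5). ENSRNOT00000027891 was at 2.6 ± 3.5 TPM (SD, n = 5) with the low dose, from 0.467 to 8.78 TPM, well under the 41.9 to 60.4 TPM of the high dose. ENSRNOT00000082044 was at 3.31 ± 2.06 TPM with the low dose, beside a vehicle level of 3.42 ± 0.656 TPM (SD, n = 5 each). ENSRNOT00000083275 was at 1.44 ± 1.18 TPM (SD, n = 5) with the low dose, where all 5 vehicle libraries rounded to 0 counts (edgeR, adjusted p = 0.0514). ENSRNOT00000026473 was at 1.32 ± 0.937 TPM, against 18.3 ± 21.9 TPM with vehicle (SD, n = 5 each), with a log2 fold change of -3.6 ± 0.943 (SE; edgeR, adjusted p = 0.145).

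Liver and heart came from the same rats, and no test was made between organs. In the heart, the high dose gave 162 calls among 17574 transcripts by 24 h (0.922%). In the liver it was 2628 of 16749 (15.7%), or 4723 of 17137 (27.6%) without the vehicle library MS-1. Of these 4723, 2276 were higher and 2447 lower. The rounded counts of MS-1 equal those of the liver library MS-9 for 99.93% of the targets. MS-9 is labelled as 8 h after 25 mg/kg of thioacetamide. With MS-1, the vehicle livers thus include a near copy of a library labelled as treated. Of the kidney's risen transcripts, 241 of the 399 tested in the liver without MS-1 were called higher there and 12 lower, with a median log2 fold change of 1.4. With MS-1 it was 45 higher and 11 lower of 398. In the heart, 38 of 372 were called, all of them higher, with a median of 0.18. Of the kidney's fallen transcripts, only 254 passed the liver's count filter without MS-1, of which 121 were called lower and 15 higher. With MS-1 it was 90 lower and 11 higher of 249. In the heart, 216 passed the count filter, and 7 were called, all of them lower. ENSRNOT00000027891 was at 47.7 ± 18.7 TPM in treated livers and 5.16 ± 10.8 TPM in vehicle livers (SD, n = 5 each), where the highest value was 24.4 and the median 0.452 TPM. Its log2 fold change in the liver was 2.93 ± 1.16 with MS-1 (SE; edgeR, adjusted p = 0.0736) and 5.91 ± 0.411 without it (SE; edgeR, adjusted p = 1.45e-05). In the heart it was -0.81 ± 0.323 (SE; edgeR, adjusted p = 0.173).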

How the data were processed

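The authors quantified 75-base read pairs of poly-A libraries with kallisto 0.42.2 (the labels name the build Rnor_6.0) and deposited, for 65166 targets, an estimated count (expected count) and a TPM value per sample. Kallisto shares a read pair among the transcripts it matches, so values of similar transcripts depend on each other. The 25095 targets that are genomic intervals, which the methods do not describe, were left out of the main tests. Estimated counts of transcripts were rounded and tested in edgeR 4.0.16 (R 4.3.3) with filterByExpr, TMM, a term for library numbers above 90, and Benjamini-Hochberg adjustment over all transcripts tested. The study itself used Sleuth, which needs estimates not used here, and its limit of 0.60 on Sleuth's effect size was applied here to edgeR's natural-log fold change. Replicates are separate rats. The members and lists were chosen with earlier results of these data known. No ENSRNOT identifier matched a gene in the tables used here, so gene lists, cell type markers, sums per gene, and sequences were not analysed. The transcripts printed are the 2 with the largest rise and the 2 with the largest fall by the rule in the text. Tests were checked on counts simulated with no batch effect and with 100 transcripts changed at each fold. The test at 24 h called 28% of 2-fold and 70% of 4-fold changes. In the data it called 832 transcripts, more than were changed in the simulation, so its rates there may differ. In the simulation, the test of dose by time called 22% and 61%, so many real changes of these sizes can be missed. Alternatives used DESeq2 1.42.0 and limma 3.58.1, and descriptions were made in Python 3.11.15.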

Additional observations from a re-analysis of the deposited data

Results flagged for a closer look

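In 29 groups of 5 values checked, 3 held a sample far from the others, where chance flags about 1 in 20. The fallen transcripts held 3.75% of the TPM in the vehicle library MS-31, and 2.61 to 2.84% in the other 4 vehicle libraries. MS-31 was also highest on the transcripts called lower without it, at a median log2 difference of 0.32. ENSRNOT00000082044 was at 0.667 CPM in MS-54 and at 0 in the other 4 high-dose libraries, where any value above 0 would be flagged. The flags of MS-31 concern fallen transcripts in each case and are not independent. The 3 flags thus cannot be set against the rate of 1 in 20.

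The effect of the high dose differed between 8 and 24 h for 176 transcripts by the interaction test in edgeR. The difference, 24 h minus 8 h on the log2 scale, was 4.4 for ENSRNOT00000027891 (adjusted p = 6.12e-05), and its fitted value was 10.84 for ENSRNOT00000083275 (adjusted p = 0.00562), which has no bound because its 24 h vehicle libraries were all at 0.

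The genomic intervals, left out of the report's tests, also changed with the high dose. With the same test and limits, 536 of 10988 were called (4.88%), 220 higher and 316 lower, and the groups did not overlap for 479 of them, against 920 of all those tested (8.37%). The largest rise with at least 2 CPM and no overlap was on the interval named chromosome 7, 116255668 to 116275316, from 0.262 ± 0.182 to 23 ± 6.19 CPM (SD, n = 5 each; edgeR, adjusted p = 5.65e-09). The largest fall was on chromosome 5, 115222586 to 115224763, from 8.3 ± 7.76 to 0.16 ± 0.0862 CPM (SD, n = 5 each; edgeR, adjusted p = 1.92e-05). Coordinates are as the files name them, and the labels give the build as Rnor_6.0. What lies there was not analysed here.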

How the results depend on the processing

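The counts of transcripts called at 24 h after the high dose stayed within 1.5 times their values under most alternatives. The exceptions were 272 lower without MS-56, 239 lower with limma on log2(TPM + 1), 665 higher with limma on log2(TPM + 0.1), 1477 called (751 higher, 726 lower) with no limit on the fold change, and 1264 called (661 higher) at an adjusted p of 0.05. DESeq2 called 1200, the model with no batch term 794, and the libraries numbered up to 90 alone 891. Leaving out each library in turn gave 576 to 874 called, 297 to 441 higher, and 272 to 447 lower, and at 8 h 117 to 187, below the 216 of all libraries in each case. DESeq2 called 449 at 8 h. The 4 calls of the low dose became 11 with no batch term, 163 with DESeq2, and 0 to 8 with a library left out. The 176 transcripts whose effect differed between the times became 478 with DESeq2 and 100 to 228 with a library left out. The cause of these changes was not tested. The 2 risen transcripts printed kept their calls throughout. The fitted log2 fold change of ENSRNOT00000082044 was -9.67 without MS-54. Library totals alone, 3 runs of library numbers as a term, and a covariate for the share of interval counts were chosen after seeing the data. No paired analysis was possible because the groups compared share no replicate number. Sums per gene and gene lists were not run. At this depth, a count of 0 allows a mean of up to 0.152 CPM in the vehicle libraries and 0.129 CPM in the high-dose libraries (3 counts per library, counting error only).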
